A study of Homo sapiens with 12 samples.

Results

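The cytosolic ribosome is built from ribosomal RNAs and a set of ribosomal proteins, one gene for nearly every protein, and this account follows those genes in HT29 cells during exposure to methotrexate. HT29 is an established human colon adenocarcinoma line, and methotrexate is an antifolate that limits the making of thymidylate and purines. Total RNA was measured on 12 Affymetrix human gene arrays, 3 in each of 4 groups: untreated control cells, taken as 0 h, and cells after 8, 24 or 48 h with 70 nM methotrexate. All cells were plated alike in F12 medium with fetal bovine serum, and the titles call the replicates biological. The 3 controls are the only untreated cells compared, so an effect of methotrexate and one of time in culture cannot be told apart.

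Members were taken by gene symbol. A gene entered if a probe set named it alone and the symbol was RPSA, RPLP0, RPLP1, RPLP2 or RPL or RPS followed by a number. Pseudogenes, the RPS6K kinases, RPS19BP1 and the noncoding RPL34-DT were left out. This gave 66 of the 18377 genes measured, on 94 probe sets, and 48 of them had a single probe set. They were 21 proteins of the small (40S) subunit, 35 of the large (60S) subunit and 10 paralogs, which are related copies such as RPL22L1. Of the 77 core proteins listed, 56 were measured in this way, 11 more lay only on probe sets that name several genes, and the other 10, among them RPSA and RPLP0, were not analysed here. The paralogs include 2 Y-linked genes, which are counted and not described singly.

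Ribosomal protein mRNAs are among the most abundant in growing cells. Their 5′ ends usually carry a run of C and T called the 5′ terminal oligopyrimidine tract, or TOP, through which the kinase mTORC1 and the RNA-binding protein LARP1 control their translation. The proteins are made in equal amounts, carried to the nucleolus by chaperones and built onto ribosomal RNA, and surplus copies are degraded. Mutations in several of them, RPS19, RPS24, RPS7, RPL5 and RPL11 included, cause Diamond-Blackfan anaemia.

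The start sites are shown here for members whose values are described below, to show the run of C and T near the start. Each line gives 15 bases before and 15 bases from the annotated start, 5′ to 3′, from RefSeq promoter sequences on GRCh38.p14, with the run of C and T that touches the start in capitals.
RPS23 (chr5:82278340-82278369, minus strand): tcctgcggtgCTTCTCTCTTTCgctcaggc
RPS24 (chr10:78033848-78033877, plus strand): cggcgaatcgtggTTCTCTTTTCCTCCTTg
RPS7 (chr2:3575245-3575274, plus strand): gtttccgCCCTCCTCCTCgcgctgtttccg
RPL13 (chr16:89560642-89560671, plus strand): ggccctgctatcaTCCCagagtgcattgcg
RPL31 (chr2:101002274-101002303, plus strand): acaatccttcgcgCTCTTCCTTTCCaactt
RPL28 (chr19:55385917-55385946, plus strand): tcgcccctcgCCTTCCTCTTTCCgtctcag
RPS6 (chr9:19380222-19380251, minus strand): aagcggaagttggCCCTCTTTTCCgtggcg
RPL3 (chr22:39319609-39319638, minus strand): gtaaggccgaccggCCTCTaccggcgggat
RPLP2 (chr11:809952-809981, plus strand): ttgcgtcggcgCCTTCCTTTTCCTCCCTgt
RPL22 (chr1:6199581-6199610, minus strand): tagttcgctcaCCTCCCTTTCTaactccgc
RPL22L1 (chr3:170870181-170870210, minus strand): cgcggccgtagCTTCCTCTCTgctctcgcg
RPL7L1 (chr6:42879601-42879630, plus strand): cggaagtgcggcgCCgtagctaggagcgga

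Promoter windows were matched for 53 of the 64 described members. A run of at least 8 C or T bases touching the 5 bases on either side of the start was found in 35 of 47 core members (74.5%), against 11.3% of all 27305 promoters. Its median length was 11 bases in core members and 4 over all promoters. The run was present in 13 of 16 core members that were called against control at 1 or more times and in 22 of 31 that were not called, so members with and without a change mostly had such a run. Bases before the annotated start count in it, so a run of that length need not be a TOP tract of the mRNA. RPL3 had a run of 5 bases, RPL13 one of 4 and RPL7L1 one of 2, so these did not have a run of that length at the annotated start. The ETS motif CCGGAAG, on either strand of the 300 bases, was in 17 of 47 core members (36.2%) and 10.7% of all promoters. AAGATGG, a YY1 motif, was in 12.8% and 6.06%, the E-box CACGTG in 4.26% and 7.43%, and TATAAA in 8.51% and 12%. CCGGAAG and AAGATGG can overlap by their shared AAG, and a match is a description of sequence only.

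The deposited values are log2 ratios to the control median of each probe set, so a level of 0 means the control median and levels cannot be compared between genes. For the same reason it could not be read whether epithelial markers were high in these cells and other markers low. Of 9 colon epithelial markers 1 was called at 8 h, 2 at 24 h and 1 at 48 h, all higher. These were KRT19 at 8 and 24 h and KRT20 at 24 and 48 h. The shares were 11.1%, 22.2% and 11.1%, against 24.2%, 16.7% and 25.3% of all genes. Of 7 fibroblast markers 0 were called against control in the limma fit. At an unadjusted p under 0.05 in that fit, 2 of them were higher at 24 h and 0 differed at 8 and 48 h. Without 48 h replicate 3, 1 fibroblast marker was called higher at 48 h. Of 6 leukocyte and endothelial markers CD68 alone was called, with log2 differences of 0.35, 0.85 and 1.08 at 8, 24 and 48 h. Their part in the results was not tested. Replicate 3 of the 48 h group stood apart: its root mean square distance from its group mean was 0.127 over all genes and 0.117 over the members, against 0.0587 to 0.0886 and 0.0376 to 0.0735 on the other 11 arrays. The counts of called genes at 48 h are therefore also given without it.

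Ribosomal protein genes were measured with little spread and mostly differed little between groups. Their median SD between replicates was 0.06 on the log2 scale, against 0.08 over all genes, and the median standard error (SE) of a difference was 0.05 against 0.07. By limma's moderated F test over the 4 groups, 18 of 66 members (27.3%) and 38.8% of all genes differed. A difference of at least 1.2-fold from control was found in 5 members at 8 h, 6 at 24 h and 7 at 48 h (7.58%, 9.09% and 10.6%), against 17.6%, 12.9% and 19% of all genes. Without 48 h replicate 3 the count at 48 h was 5 (7.58%, against 17.4%). The 95% interval of the difference from control lay within 1.2-fold either way for 51 members at 8 h, 53 at 24 h and 49 at 48 h (48 without 48 h replicate 3). Over all genes that share was 55.1%, 58.4% and 54.2%, and in members it was 77.3%, 80.3% and 74.2%. In an RNA pool from whole cultures, fewer cells of a kind and less RNA per cell cannot be told apart, and normalization between arrays removes a change common to all transcripts.

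**Figure D1:**
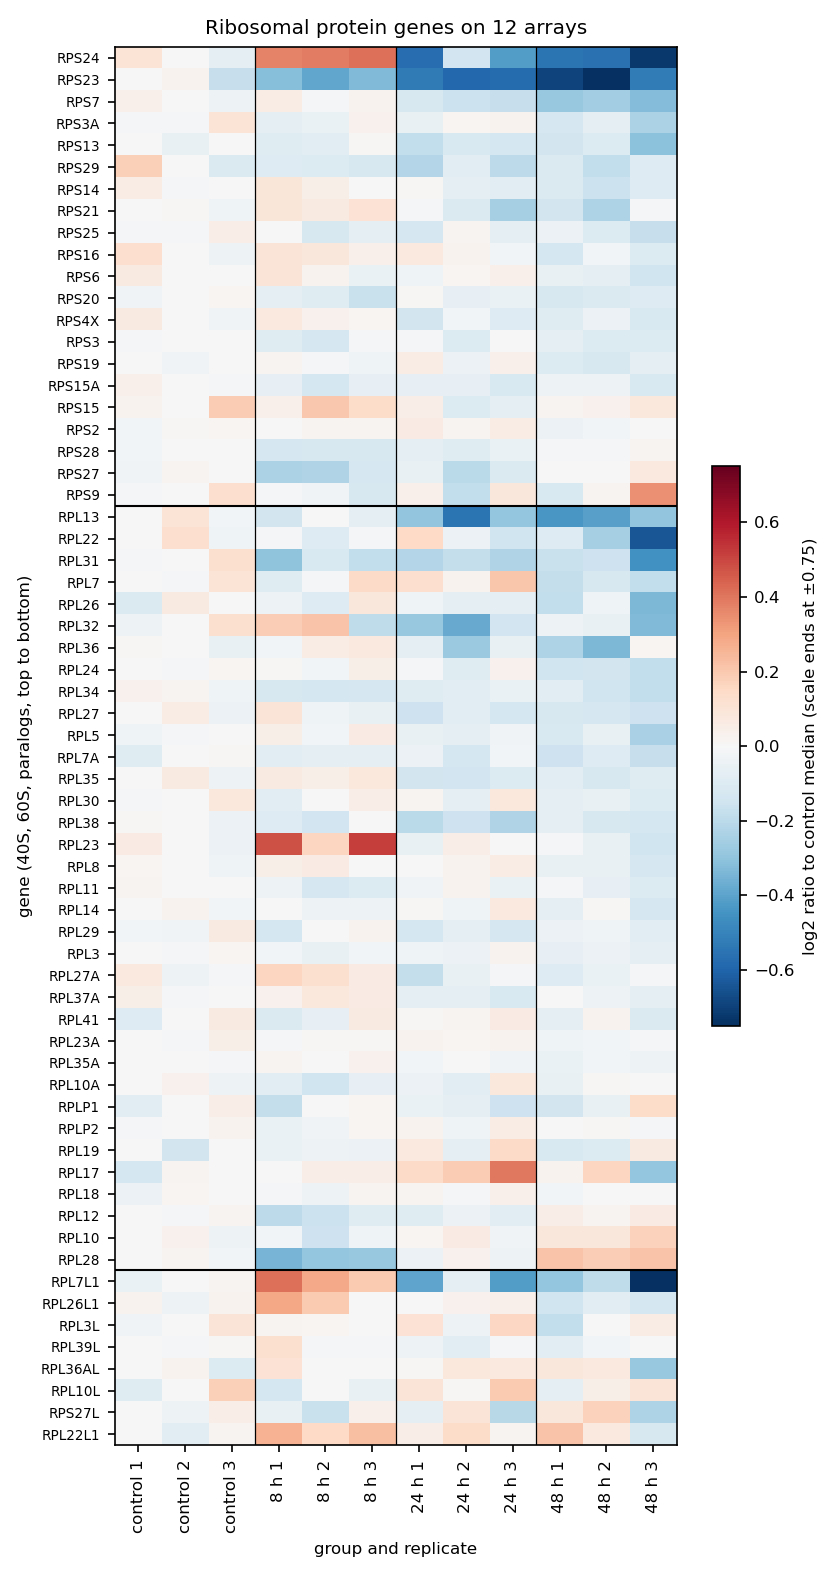
Log2 ratio to the control median of 64 ribosomal protein genes (rows, ordered by class and by the 48 h difference) on the 12 arrays (columns, group and replicate); red is higher and blue lower, and the colours end at ±0.75. Most rows stay pale, RPS23 and RPS24 are dark blue at 48 h, and RPL7L1 and RPL22 are darkest on 48 h replicate 3, where RPL7L1 lies beyond the end of the scale.

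After 8 h, 7 members fell and 3 rose of 66, so 15.2% were called (adjusted p under 0.05, Benjamini-Hochberg over all genes) against 24.2% of all genes (12.1% higher and 12% lower). The median difference of the members was -0.02, against 0.02 over all genes. RPL28, a 60S protein found only in eukaryotes, and RPS23, which lines the decoding centre of the 40S subunit, fell most. RPL23 and RPS24 rose most. The 3 treated arrays lay wholly beyond the 3 controls for 19 members, 14 of them lower, or 28.8% against 37.9% of all genes (20.7% higher and 17.2% lower). The described members that were not called lay between -0.13 (RPS29) and 0.31 (RPL7L1).

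RPL28 stood at 0.00, 0.02 and -0.02 on the control arrays, at -0.35, -0.29 and -0.28 after 8 h, at -0.05, 0.03 and -0.04 after 24 h and at 0.21, 0.18 and 0.21 after 48 h. The 8 h arrays lay below and the 48 h arrays above every other array, while 24 h overlapped control. The difference from control was -0.31 at 8 h (SE 0.04, adjusted p = 0.00017, limma, n = 3 per group), 1.24-fold lower, and 0.20 at 48 h (adjusted p = 0.00315), 1.15-fold higher. RPL28 was the single member that rose at 48 h. It also rose from 8 to 24 h (0.29, adjusted p = 0.000363) and from 24 to 48 h (0.22, adjusted p = 0.00564).

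RPS24, a 40S protein needed to process the ribosomal RNA precursor, stood at 0.10, 0.00 and -0.07 in control and at 0.37, 0.39 and 0.41 after 8 h. It was at -0.57, -0.14 and -0.42 after 24 h and at -0.55, -0.56 and -0.72 after 48 h. All 8 h arrays were above control and all 24 and 48 h arrays below it. The difference from control was 0.38 (SE 0.09, adjusted p = 0.00752) at 8 h, -0.39 (adjusted p = 0.00971) at 24 h and -0.62 (adjusted p = 0.000215) at 48 h, the last 1.54-fold lower. The change from 8 to 24 h, -0.77 (adjusted p = 6.74e-05), was the largest of any member in the 5 comparisons.

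RPS23 was at 0.00, 0.03 and -0.17 in control, at -0.32, -0.39 and -0.33 after 8 h, at -0.53, -0.59 and -0.58 after 24 h and at -0.69, -0.76 and -0.52 after 48 h. Every treated array was below every control array. The difference from control was -0.30 (SE 0.07, adjusted p = 0.0053) at 8 h, -0.51 (adjusted p = 0.000156) at 24 h and -0.61 (adjusted p = 2.22e-05) at 48 h, 1.23-, 1.43- and 1.53-fold lower. It was also lower at 24 than at 8 h (-0.22, adjusted p = 0.038), while 48 h against 24 h was not called (-0.09, adjusted p = 0.495).

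RPL23, a 60S protein at the face between the subunits that can also bind the p53 ligase MDM2, rose at 8 h. Its control arrays read 0.06, 0.00 and -0.04 and its 8 h arrays 0.48, 0.16 and 0.52, with no overlap and replicate 2 lowest. The difference was 0.38 (SE 0.08, adjusted p = 0.00369). At 24 and 48 h it differed from control by -0.01 (adjusted p = 0.967) and -0.08 (adjusted p = 0.58), and the fall from 8 to 24 h was -0.39 (adjusted p = 0.0039). It has no promoter window in the table used.

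RPL31 and RPS27 were among the smaller falls at 8 h. RPL31, near the exit of the peptide tunnel, was at -0.02, 0.00 and 0.12 in control and at -0.30, -0.11 and -0.18 after 8 h (-0.23, SE 0.08, adjusted p = 0.0438). It was lower at 24 h too (-0.24, adjusted p = 0.0492) and at 48 h (-0.29, adjusted p = 0.0127), with no overlap with control at any time. RPL31 passed the threshold in 8 of 17 alternative fits at 8 h, in 7 of 17 at 24 h, and at 48 h in all but the fit without control replicate 3 (adjusted p = 0.0544). RPS27, a zinc-binding 40S protein, fell by 0.20 at 8 h (SE 0.05, adjusted p = 0.0139), was lower by a similar value in both of its probe sets (-0.21 and -0.18), and was at 0.02 at 48 h (adjusted p = 0.818). RPL12, at the base of the stalk that recruits translation factors, fell by 0.15 at 8 h (adjusted p = 0.0223). RPL34 was lower by 0.13 (adjusted p = 0.0414), and RPS28, the seventh fall, had the smallest difference, -0.12 (adjusted p = 0.0472). At 8 h RPS27 passed the threshold in 14 of 17 alternative fits, RPL12 in 12 and RPL34 in 6.

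These small differences rest on few arrays. The count of 10 at 8 h was 5 without control replicate 1, 4 without control replicate 2, 6 without control replicate 3, 4 without 8 h replicate 1, 6 without 8 h replicate 2 and 6 without 24 h replicate 1. Fewer arrays can make a call harder for any gene, here and in the counts below with 1 array left out. Whether members lost more calls than other genes was not tested. RPL28, RPS23, RPS24 and RPL23 passed the threshold in all 17 alternative fits of all genes (replicate block, array weights, centred arrays, robust prior, only the 2 groups, and each array left out).

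**Figure D2:**
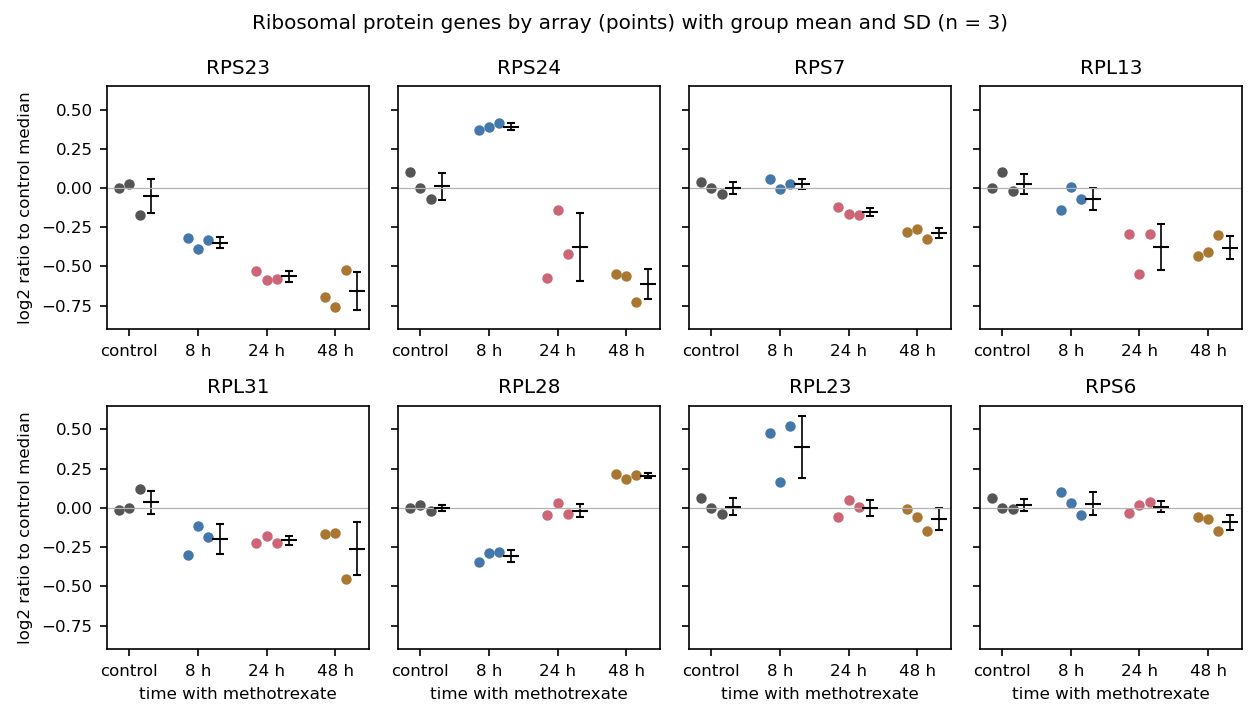
Log2 ratio to the control median (y axis) of 8 ribosomal protein genes by time with methotrexate (x axis); each point is an array, and the black mark and bar beside it are the group mean and SD (n = 3). RPS23 steps down from 8 h on, RPS24 is above control at 8 h and below it later, RPL28 is below control at 8 h and above it at 48 h, and RPS6 stays between -0.15 and 0.10.

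After 24 h, 7 of 66 members fell (10.6%) and 0 rose, against 16.7% of all genes called in either direction (8.69% higher and 8.02% lower). At an unadjusted p under 0.05, 14 were lower and 1 higher in the limma fit, against 2452 lower and 2622 higher of all 18377 genes. The median difference was -0.04, with -0.03, -0.06 and -0.03 as the members' medians on the 3 arrays. All 3 arrays lay below control for 19 members and above it for 3, 33.3% in all, against 33% of all genes (15.2% lower and 17.8% higher). RPS23, RPL13 and RPS24 fell most, and they were called in all 17 alternative fits. The described members that were not called lay between -0.30 (RPL32) and 0.28 (RPL17). The count of 7 was 3 without control replicate 1, control replicate 2, 24 h replicate 1 or 24 h replicate 3.

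RPL13, a 60S protein, first fell at 24 h. Its arrays read 0.00, 0.10 and -0.02 in control, -0.14, 0.00 and -0.07 at 8 h, -0.29, -0.55 and -0.29 at 24 h and -0.43, -0.41 and -0.30 at 48 h. The 24 and 48 h arrays lay below control and the 8 h arrays overlapped it. The difference was -0.10 at 8 h (adjusted p = 0.427), -0.41 at 24 h (SE 0.07, adjusted p = 0.00171) and -0.41 at 48 h (adjusted p = 0.00101), both about 1.32- to 1.33-fold lower. RPL13 has processed pseudogenes and hosts a small nucleolar RNA, and a signal shared with such copies was not tested for any member.

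RPS7, a 40S protein that can bind MDM2, also fell from 24 h on. It was at 0.04, 0.00 and -0.04 in control, at 0.06, -0.01 and 0.02 after 8 h, at -0.12, -0.16 and -0.17 after 24 h and at -0.28, -0.26 and -0.32 after 48 h. Control and 8 h overlapped, and the 24 h and 48 h arrays formed separate steps below them. The difference was -0.15 at 24 h (SE 0.04, adjusted p = 0.0294) and -0.29 at 48 h (adjusted p = 0.000285). The 24 h call passed the threshold in 11 of 17 alternative fits, and 48 h against 24 h was not called. The probe sets of RPS7 had the same sign at 48 h and unequal size, -0.16 and -0.42. From 24 to 48 h they differed by -0.04 (adjusted p = 0.796) and -0.24 (adjusted p = 0.0115, limma on single probe sets). RPL38 (-0.18, adjusted p = 0.0193) and RPL35 (-0.14, adjusted p = 0.0468) were the other calls at 24 h.

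After 48 h, 12 members fell and 1 rose, 19.7% against 25.3% of all genes (12.3% lower and 13% higher). The members lay lower as a set by a small amount: 56 of 66 differences were below 0 and their median was -0.08, against 0.01 over all genes. Without 48 h replicate 3, 59 were below 0 and the median was -0.08, against -0.01. The members' median was -0.08, -0.05 and -0.10 on the 3 arrays. All 3 arrays lay below all 3 controls for 33 members (50%) and above them for 3, against 17.9% of all genes in each direction and 35.7% in either. The first count was 40 members (60.6%) without 48 h replicate 3, against 25.1%. Both subunits showed this, with medians of -0.11 over 21 40S members and -0.06 over 35 60S members, and 13 and 18 members without overlap. Without 48 h replicate 3 the medians were -0.10 and -0.06, with 16 and 20 members without overlap. The difference between the subunits was not tested.

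RPS24 and RPS23 fell by 0.62 and 0.61 on the log2 scale, the largest falls at 48 h. RPL7L1, RPL13, RPL22 and RPL31 followed, and RPS7 was next. The other 5 falls, RPL7, RPS3A, RPL24, RPL34 and RPS14, were between -0.19 and -0.14. RPS14, a 40S protein of which one copy is lost in the 5q- syndrome, had a difference of -0.14 (adjusted p = 0.0471), and RPL7 one of -0.19 (adjusted p = 0.0462) with -0.18 to -0.21 in its 3 probe sets. RPS14 passed the threshold in 5 of 18 alternative fits, RPL7 in 10 and RPL34 in 12. RPL7 was also the one member that fell from 24 to 48 h (-0.28, adjusted p = 0.0156).

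The count of 13 at 48 h was 7 without 48 h replicate 3 (6 lower and 1 higher, 10.6% against 24.2% of all genes), 6 without control replicate 1, 7 without control replicate 2 and 7 without control replicate 3. In a limma fit of only the control and 48 h arrays with the replicate number as a block, the count was 9. RPL34 (adjusted p = 0.0722) and RPS14 (adjusted p = 0.0897) were lost there. Only for this pair of groups did same-numbered arrays all deviate together (r over 0.1), and that does not show that they were paired. RPS23, RPS24, RPL13, RPS7 and RPL28 passed the threshold in all 18 alternative fits.

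The calls of RPL22 and RPL7L1 at 48 h were lost in several fits, and 48 h replicate 3 was the lowest array of both. RPL22, an RNA-binding 60S protein, read 0.00, 0.12 and -0.03 in control and -0.10, -0.25 and -0.64 at 48 h. Its difference was -0.36 (SE 0.11, adjusted p = 0.0352), and -0.20 (adjusted p = 0.101) without that array. It was also lost without each control array and in the fit of only the 2 groups (adjusted p = 0.0522 to 0.128). RPL7L1, a paralog of RPL7, read -0.05, 0.00 and 0.02 in control, 0.42, 0.28 and 0.20 at 8 h, -0.40, -0.07 and -0.42 at 24 h and -0.29, -0.19 and -0.89 at 48 h. The 8 h arrays lay above control and the later ones below it. The 48 h difference was -0.45 (SE 0.15, adjusted p = 0.0419), and -0.23 (adjusted p = 0.106) without that array. It was lost in 9 of 18 alternative fits, those without each control array and with centred arrays among them. RPL7L1 was not called at 8 h (0.31, adjusted p = 0.173) or at 24 h (-0.28, adjusted p = 0.247) with all arrays. Without 48 h replicate 3 it was called higher at 8 h (adjusted p = 0.0151) and lower at 24 h (adjusted p = 0.0311), and so it was in the fits of only the 2 groups (adjusted p = 0.00501 and 0.0488) and with array weights. From 8 to 24 h RPL7L1 fell by 0.59 (adjusted p = 0.0123).

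**Figure D3:**
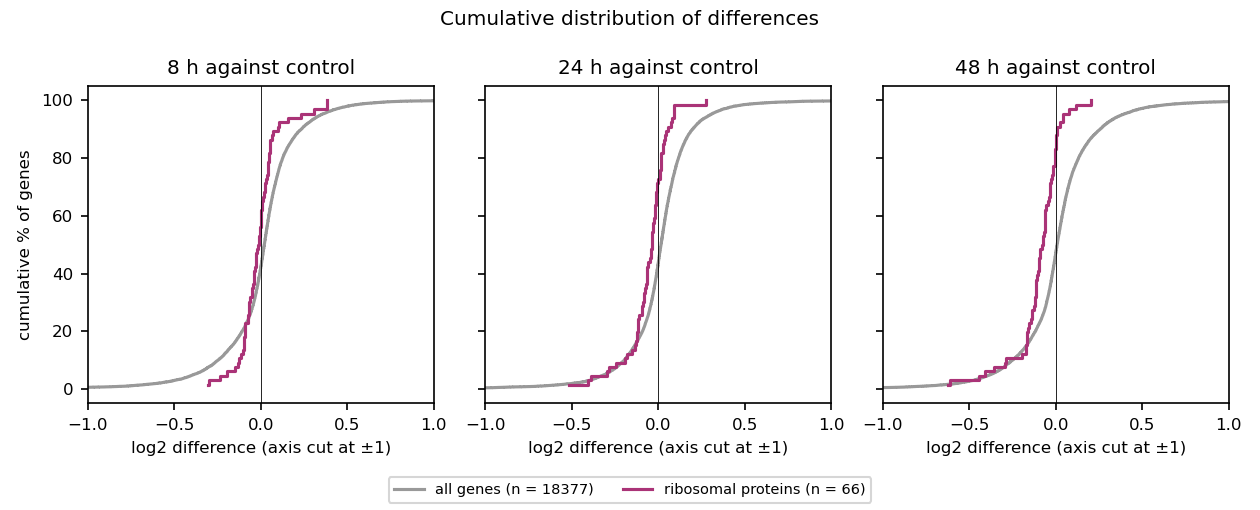
Cumulative share of genes (y axis, percent) by log2 difference from control (x axis, shown from -1 to 1) at 8, 24 and 48 h, for the 66 ribosomal protein genes and all 18377 genes. The members' curve is steeper than that of all genes, and at 48 h it lies to the left, with a median of -0.08 against 0.01.

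From 8 to 24 h, 11 members fell and 1 rose, 18.2% against 19.4% of all genes (9.4% lower and 9.99% higher), and the median difference was 0.00. The arrays of the 2 times did not overlap for 18 members that were lower and 8 that were higher, against 33.3% of all genes (16.6% lower and 16.7% higher). At least a 1.2-fold difference was found in 6 members (9.09%), against 14.5%. RPS24, RPL7L1 and RPL23, which had been above control at 8 h, fell most, and RPL28 was the rise. The count of 12 was 7 without 8 h replicate 1, 8 h replicate 2 or 24 h replicate 1. From 24 to 48 h 1 member rose and 1 fell, 3.03% against 10.1% (5.26% higher and 4.86% lower), with a median of -0.05. There 12 members were lower and 6 higher without overlap, against 24% of all genes (12.6% and 11.5%), and 3 (4.55%) differed by at least 1.2-fold, against 8.26%. The count of 2 there was 1 without 24 h replicate 3. These comparisons share arrays with those against control, which in turn share the 3 control arrays, so their counts are not independent.

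Several members with special roles were not called against control with all arrays at equal weight. RPS6, the 40S protein phosphorylated by S6 kinase downstream of mTORC1, differed from control by 0.01 at 8 h (95% interval -0.10 to 0.12), -0.01 at 24 h (-0.12 to 0.10) and -0.11 at 48 h (-0.22 to -0.0042, adjusted p = 0.13). RPL5 and RPL11, which bind 5S ribosomal RNA and in that complex restrain MDM2, were not called at any time, with values of 0.04 and -0.10 at 8 h and -0.12 and -0.06 at 48 h. The intervals of RPL11 stayed between -0.19 and 0.08, and those of RPL5 between -0.24 and 0.15. RPL5 is a mean of 3 probe sets, which read -0.04, -0.17 and -0.16 at 48 h. The last of them was called on its own (adjusted p = 0.0361, limma on single probe sets) and the others were not. From 24 to 48 h they differed by 0.05, -0.20 (adjusted p = 0.0493, the same fit) and -0.11. Of the stalk proteins, RPLP1 and RPLP2 were not called either, and RPLP2 had 95% intervals within -0.12 to 0.10 at the 3 times. RPS19 differed by 0.00, 0.03 and -0.09, RPL3, next to the peptidyl transferase centre, by -0.03, -0.02 and -0.06, and RPL10, which completes that centre late in assembly, by -0.07, 0.02 and 0.12. RPL26 was at 0.00, -0.05 and -0.17, a difference at 48 h as large as some that were called. Other fits called 4 of these genes: without 48 h replicate 2, RPL26 (-0.25, adjusted p = 0.0261) and RPL5 (-0.16, adjusted p = 0.0488) at 48 h, and with array weights RPL11 at 8 h (-0.11, adjusted p = 0.0331) and RPS19 at 48 h (-0.10, adjusted p = 0.0204).

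Among the 10 paralogs 1 rose at 8 h, 0 were called at 24 h (0 also at an unadjusted p under 0.05) and 1 fell at 48 h (RPL7L1, and 0 without 48 h replicate 3, where 1 was higher and 1 lower at an unadjusted p under 0.05, limma). Those shares, 10%, 0% and 10%, were below the 24.2%, 16.7% and 25.3% of all genes. RPL22L1, the paralog of RPL22, rose at 8 h, from 0.00, -0.08 and 0.02 in control to 0.26, 0.15 and 0.23. The difference of 0.23 (SE 0.07, adjusted p = 0.0365) was lost without any 1 of the control arrays, 8 h replicate 1 or 3 or 24 h replicate 1, and with each array centred on its median. At 48 h RPL22L1 was at 0.22, 0.07 and -0.12, overlapping control (0.08, adjusted p = 0.56), and was called higher with array weights (0.13, adjusted p = 0.0334). RPL26L1 was at 0.29, 0.19 and -0.01 after 8 h (0.15, adjusted p = 0.112). It was called without 8 h replicate 3, the lowest of them (0.24, adjusted p = 0.00764), and with array weights (adjusted p = 0.048). RPS27L, a p53 target in other cells, differed by -0.07, -0.06 and 0.00 at the 3 times (SE 0.10). With array weights, which give 48 h replicate 3 the lowest weight, it was called higher at 48 h (0.17, adjusted p = 0.041). RPL36AL, RPL39L, RPL3L and the testis gene RPL10L had differences between -0.09 and 0.08.

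Probe sets of the same gene disagreed for some members. Of 18 genes with several probe sets, 5 had probe sets of both signs at 8 h, 4 at 24 h and 6 at 48 h, and the median range within a gene was 0.04, 0.05 and 0.06. RPL27A was the widest at 8 h: one probe set was at 0.36 (adjusted p = 0.000349) and the other at -0.14 (adjusted p = 0.149), and their mean, 0.11, was not called. Its fall from 8 to 24 h (-0.20, adjusted p = 0.0222) is therefore uncertain. The 3 probe sets of RPS28 and the 3 of RPS2 differed by at most 0.03 within a gene. RPS23, RPS24, RPL13, RPL28, RPL23, RPL31, RPL22 and RPL7L1 each had a single probe set, so they could not be checked in this way. Of the differences from control of at least 1.2-fold, 5 at 8 h, 6 at 24 h and 6 at 48 h were in genes with a single probe set. The 18 genes with several had 0, 0 and 1.

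Genes that work with ribosomal proteins were counted beside them, and 24.2%, 16.7% and 25.3% of all genes called at 8, 24 and 48 h are the measure for each list. Of 8 chaperones that carry single ribosomal proteins, 6 rose at 8 h and 0 fell, 0 were called at 24 h, and 5 fell at 48 h and 0 rose (75%, 0% and 62.5%, and 5 lower also without 48 h replicate 3). In the limma fit at an unadjusted p under 0.05, 0 were lower at 8 h, 1 was lower and 0 higher at 24 h, and 0 were higher at 48 h. BCCIP, which carries RPL23, rose by 0.54 at 8 h (SE 0.06, adjusted p = 2.44e-05) and was 0.39 lower than control at 48 h (-0.39, adjusted p = 0.000293). GRWD1, which carries RPL3, rose by 0.53 at 8 h (adjusted p = 0.000628), and LTV1, a 40S assembly factor, fell by 0.33 at 48 h (adjusted p = 0.00919). The chaperones' median was 0.34 at 8 h and -0.22 at 48 h, against -0.02 and -0.08 for the ribosomal proteins. Whether the lists differ was not tested.

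Of 13 genes that control ribosome synthesis, 5 rose and 1 fell at 8 h, 1 rose and 2 fell at 24 h, and 5 fell and 0 rose at 48 h (46.2%, 23.1% and 38.5%). At 48 h 1 was higher at an unadjusted p under 0.05 (limma), and without 48 h replicate 3 the count was 4 lower and the median -0.08 in place of -0.16. POLR1A and POLR1B, of RNA polymerase I, rose by 0.53 each at 8 h. The transcription factor MYC fell by 0.42 at 24 h and 0.63 at 48 h. EIF4EBP1, an mTORC1 substrate that restrains cap-dependent initiation, fell by 0.47 at 8 h and 0.93 at 48 h (adjusted p = 0.000222 at 48 h, limma). Its 8 h call passed the threshold in 13 of 17 alternative fits. At 24 h EIF4EBP1 differed by -0.40 and was not called (adjusted p = 0.0604), but some other fits called it, such as that without 48 h replicate 3 (adjusted p = 0.00194). Of 6 genes that assemble or sense the 5S complex, RRS1 rose (0.62) and NOP53 fell (-0.29, lost without 8 h replicate 1 with an adjusted p of 0.0507) at 8 h. At 24 h 0 were called (0 also at an unadjusted p under 0.05, limma), and RPF2 (-0.69) and MDM2 (-0.45) fell at 48 h (33.3%, 0% and 33.3%, and 2 lower also without 48 h replicate 3).

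Of 15 measured genes of translation factors and other proteins with a TOP tract, 2 rose and 2 fell at 8 h, 1 rose and 1 fell at 24 h, and 3 fell and 0 rose at 48 h (0 higher at an unadjusted p under 0.05, limma). These shares, 26.7%, 13.3% and 20%, were near or below those of all genes, and without 48 h replicate 3 the 48 h count was 3 lower and 1 higher. EEF1B2, a nucleotide exchange factor of elongation, and FAU, which encodes a ubiquitin-like fusion with the 40S protein RPS30, rose by 0.28 each at 8 h. TPT1 fell at 24 h (-0.29) and 48 h (-0.35), and EIF3E, an initiation factor subunit, at 48 h (-0.38). The list median was 0.04, 0.02 and -0.04.

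The proteins of the mitochondrial ribosome, which are encoded in the nucleus, gave a different count. Of 73 such genes, 34 rose at 8 h (46.6%) and 0 fell (2 lower at an unadjusted p under 0.05, limma), against 3 and 7 of the 66 cytosolic members and 12.1% and 12% of all genes. At 24 h 7 rose and 5 fell, 16.4% against 16.7% of all genes. Their median difference was 0.17 at 8 h, 0.01 at 24 h and -0.08 at 48 h, where 23 fell and 2 rose (31.5% lower, against 12.3%; 21 and 2 without 48 h replicate 3). The cytosolic median ran from -0.02 through -0.04 to -0.08. At 8 h the 2 sets were thus apart, and at 48 h their medians were alike in size, without a test of either.

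**Figure D4:**
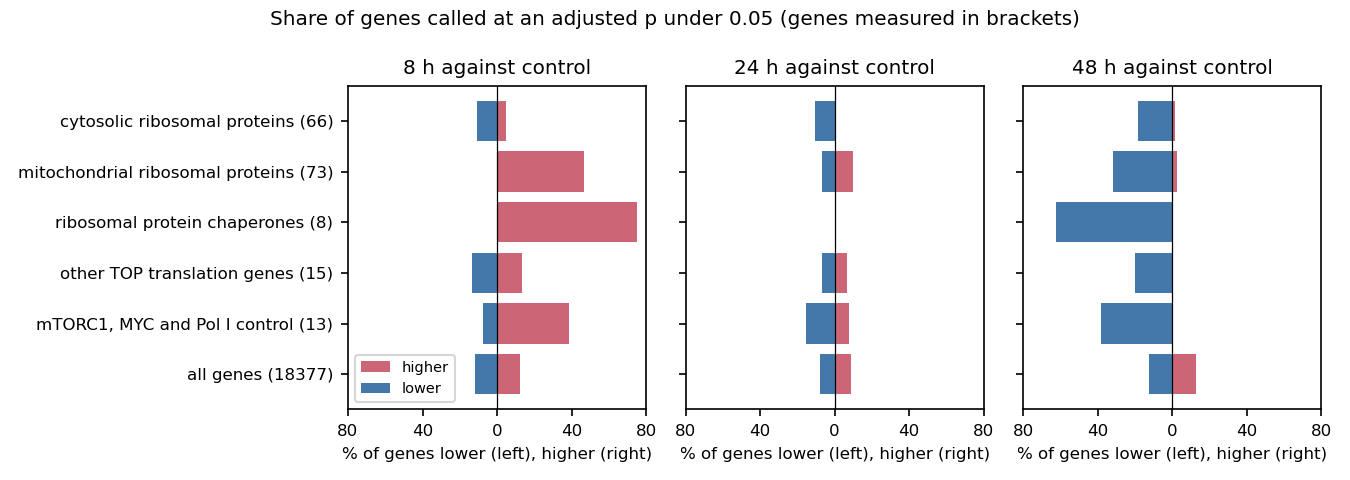
Share of genes called against control (x axis, percent; lower to the left in blue, higher to the right in red) at 8, 24 and 48 h for 6 gene lists, with the number of genes measured in brackets. Cytosolic ribosomal proteins have 4.55% higher and 10.6% lower at 8 h, mitochondrial ribosomal proteins 46.6% higher, and at 48 h most called genes of each list of ribosomal or translation genes are lower.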

How the data were processed

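Total RNA of 12 HT29 cultures was labelled with biotin and measured on Affymetrix gene arrays, per the labels' protocols. The deposited log2 values were made with RMA on build hg19, per the submitters' processing notes, without versions. Each of the 28869 probe sets has a control median of exactly 0. Who subtracted it, and when, is not given in the sources used. It removes levels and leaves differences unchanged. Of the probe sets 19310 name 1 gene, 1752 several and 7807 none, by the platform annotation. A gene's single-gene probe sets were averaged.

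Group and replicate number came from the titles. All 18377 genes were fitted with limma 3.58.1 (R 4.3.3), a mean per group, 8 residual and 4.71 prior degrees of freedom. Tests were two-sided with Benjamini-Hochberg adjustment over all genes, and the script was tested on simulated data. SE is limma's. The number of arrays limits precision. Named genes were up to 6 called rises and 6 falls per comparison with control, 3 per consecutive comparison, a fixed set of members, and 2 called genes per other list. RPS28, RPL35, RPL38, RPS3A, RPL24, RPL27A, RPS29, RPL32, RPL17 and RPS2, where named beyond this, were chosen after their values were seen. Members and lists were chosen with earlier results of these data known. Same-numbered arrays deviated together (all r over 0.1) only for 48 h and control (0.349, 0.117 and 0.458); over the 15 pairs r ran from -0.45 to 0.47. Figures used matplotlib 3.10.9 with pandas 2.3.3, numpy 2.4.6 and Python 3.11.15.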

Additional observations from a re-analysis of the deposited data

Results flagged for a closer look

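Some members differed from control by unlike amounts at 2 times, by the test of the difference between those times. From 8 to 24 h these were RPS24 (-0.77), RPL7L1 (-0.59), RPL23 (-0.39), RPL32 (-0.34), RPL13 (-0.31), RPS23 (-0.22), RPS21 (-0.21), RPL27A (-0.20), RPL35 (-0.19), RPS7 (-0.18), RPL37A (-0.14) and RPL28 (0.29). From 24 to 48 h they were RPL7 (-0.28) and RPL28 (0.22). RPL32 was the one of these whose arrays at the 2 times overlapped, with 0.19, 0.21 and -0.19 at 8 h and -0.29, -0.38 and -0.14 at 24 h. RPS24 and RPL28 were called against control in opposite directions at different times.

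Probe sets that name several genes, 1 of them a cytosolic ribosomal protein, were outside the comparisons. They cover 20 such genes on 47 probe sets, 11 of them not measured alone, and 6 were called at 48 h against control, 5 lower and 1 higher. Of all genes with a probe set of their own, 25.3% were called at 48 h. Which of the named genes gives the signal was not tested.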

How the results depend on the processing

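The fit with the replicate block called 8 members at 8 h, 6 at 24 h and 13 at 48 h, and 25.7%, 18.4% and 27.2% of all genes. Of the named members' calls against control it ended that of RPL34 at 8 h (adjusted p = 0.059). The replicate block in the fit of control and 48 h alone is given with the 48 h results and was chosen after seeing the data, as were the list counts without 48 h replicate 3. Of 26 named called differences of members from control, 12 passed in every refit of all genes at the same threshold (block, weights, centring, robust prior, 2 groups, each array left out). Stricter thresholds and changed gene sets were counted only over the members. The alternatives that moved a count by more than 1.5 times were these. Array weights gave 15 at 24 h, 24 at 48 h, 13 from 24 to 48 h and 35 among the 4 groups, with all genes called more often too (33.1%, 40.6%, 32.1% and 60.9%). A fit of only the 2 groups gave 7 at 48 h, where 20.9% of all genes were called. An adjusted p under 0.01 gave 4, 3 and 5 at 8, 24 and 48 h, 5 from 8 to 24 h, 1 from 24 to 48 h and 8 among the 4 groups. An adjusted p under 0.05 together with at least a 1.2-fold difference gave 4, 3, 7, 6 and 1 in the 5 comparisons. Genes with 1 probe set, 48 members, gave 6 at 8 h, 8 at 48 h, 1 from 24 to 48 h and 11 among the 4 groups. Every probe set on its own gave 5 from 24 to 48 h.

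Leaving out 1 array gave 4 to 11 at 8 h, 3 to 10 at 24 h, 6 to 14 at 48 h, 7 to 13 from 8 to 24 h, 1 to 3 from 24 to 48 h and 13 to 20 among the 4 groups. Medians then ran from -0.029 to 0.00044 at 8 h, -0.0487 to -0.0325 at 24 h, -0.09 to -0.07 at 48 h, -0.0101 to 0.0039 from 8 to 24 h and -0.05 to -0.03 from 24 to 48 h. The 8 h median was -0.0035 with array weights, -0.0335 with each array centred, -0.0255 over core proteins, -0.0103 over genes with 1 probe set and -0.0089 with probe sets naming several genes. The 24 h median was -0.0503 with each array centred, and that from 8 to 24 h -0.0108 with probe sets naming several genes. The cause of these moves was not tested, beyond fewer arrays or genes where these were left out. Levels over background are unknown, so a filter on dim probes was not run.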

Other observations

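The RPS6K kinases, which include the S6 kinases that phosphorylate RPS6 and the RSK kinases of the ERK pathway, moved in both directions. Of 10 measured, 4 rose and 1 fell at 8 h, 3 rose and 1 fell at 24 h, and 2 rose and 2 fell at 48 h (50%, 40% and 40%, against 24.2%, 16.7% and 25.3% of all genes; 2 and 1 at 48 h without 48 h replicate 3). RPS6KA4, which encodes the nuclear kinase MSK2, rose by 0.62 at 8 h (SE 0.07) and was at -0.08 at 48 h (adjusted p = 0.508). RPS6KA1, which encodes RSK1, was higher at all 3 times (0.29, 0.33 and 0.30), and RPS6KA5 fell at 24 h (-0.27) and 48 h (-0.38). RPS6KB1, the main S6 kinase, was not called at any time (0.13, -0.01 and 0.00). RPS6KB2, which also encodes an S6 kinase, was higher at 8 h (0.32, adjusted p = 0.00256, limma) and 24 h (0.21, adjusted p = 0.0425). It was at 0.07 at 48 h (adjusted p = 0.501), and its 24 h call passed in 8 of 17 alternative fits.

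Of 21 pseudogenes of ribosomal proteins with a probe set of their own, 0 were called at 8 h in the limma fit (1 higher and 3 lower at an unadjusted p under 0.05), 1 rose at 24 h, and 3 rose and 1 fell at 48 h (2 and 1 without 48 h replicate 3). Those shares, 0%, 4.76% and 19%, were below those of all genes. Their median was 0.00, 0.05 and -0.02 at the 3 times. RPL34-DT, a noncoding transcript that starts next to RPL34, differed from control by -0.05, -0.07 and 0.05 and was not called.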
